A study of Mus musculus with 10 samples.

Results

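The genes described here are 9 Dock and Elmo genes of mouse microglia: Dock1, Dock2, Dock4, Dock5, Dock8, Dock10, Dock11, Elmo1 and Elmo2. They were taken by symbol from the GENCODE M21 annotation, each matched 1 gene identifier, and they are 9 of 55471 genes counted in every library. Primary microglia of WT mice were cultured and treated with gapmers, antisense oligonucleotides that recruit RNase H to the RNA they pair with. A control gapmer was used for 5 libraries and a gapmer against 3222401L13Rik, a long noncoding RNA, for the other 5, and total RNA was sequenced from all 10. No age, dose, time or culture number is given in the sources used here, so p-values cover the spread among these libraries alone, part of which may be technical.

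Dock proteins are guanine nucleotide exchange factors: they load small GTPases with GTP and so switch them on. Dock1, Dock2, Dock4 and Dock5 act on Rac and bind an Elmo protein, which relieves their autoinhibition and brings them to the membrane. Dock8, Dock10 and Dock11 belong to other branches of the family and are best known for acting on Cdc42, so the name Rac activators covers them less well. In macrophages Elmo with Dock1 passes signals from engulfment receptors to Rac and the actin cytoskeleton. Dock2 and Dock8 are known from leukocytes, where they serve migration.

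The study's title names the myeloid transcription factor PU.1, so the sequence before each gene's start was searched for GAGGAAG, letters of the PU.1 consensus, on both strands. RefSeq (GRCm38.p6) gave 12 windows of 250 bases for 8 of the 9 genes, and Dock2 had the 1 window with a match. In all, 10.6% of 32851 such windows held these letters. The overlapping letters AGGAAGT were in 2 of the 12 windows and in 7.69% of all. The longer GAGGAAGT was in 0 of the 12 and in 2.44% of all. The windows of Dock2 (chr11:34783906-34784155, minus strand) and Dock8 (chr19:24999279-24999528, plus strand) are shown because these were the most abundant members. Both are written 5′ to 3′, and capitals mark the match, which begins 9 bases before the start of Dock2.
Dock2: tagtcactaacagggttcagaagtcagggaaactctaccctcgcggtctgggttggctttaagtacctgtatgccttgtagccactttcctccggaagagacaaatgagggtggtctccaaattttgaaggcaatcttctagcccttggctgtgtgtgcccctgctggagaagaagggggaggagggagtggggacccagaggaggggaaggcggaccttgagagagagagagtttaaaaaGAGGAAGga
Dock8: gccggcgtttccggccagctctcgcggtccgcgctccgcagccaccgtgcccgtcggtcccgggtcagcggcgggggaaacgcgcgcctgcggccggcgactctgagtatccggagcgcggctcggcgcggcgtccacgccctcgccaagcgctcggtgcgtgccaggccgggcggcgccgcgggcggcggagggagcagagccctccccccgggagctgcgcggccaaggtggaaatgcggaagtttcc
The Dock8 window had 77.6% G and C and that of Dock2 52.8%. A match of letters is a description of the sequence and says nothing of binding.

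Control libraries held 4321316 to 5639040 reads and libraries labelled knockdown 5593627 to 6636082. Reads of 3222401L13Rik numbered 30, 29, 28, 33 and 34 in control replicates 1 to 5. In the same order they numbered 22, 38, 24, 33 and 29 in the libraries labelled knockdown (log2 fold change -0.17, SE 0.23, adjusted p = 0.541). The target was therefore not shown to be lower, and directions are given for libraries by their label. Reads in 1135 olfactory receptor genes, which microglia do not use, gave each library a background density per kilobase (kb) of exon. It was put in reads per kb per 1000000 reads with TMM scaling, edgeR's trimmed-mean scaling of library size. So scaled, the density was 0.566 ± 0.115 in the control and 0.277 ± 0.064 in the libraries labelled knockdown (SD, n = 5 each). The density times a gene's exon length, as a percent of its reads, is called its background share. For 3222401L13Rik this share was 48.0% over all libraries, so its reads do not give the level of the target alone.

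Dock2 and Dock8 were the most abundant members in microglia and Dock5 the least. Levels were compared per length, as reads per kb of merged exon per 1000000 reads with the same TMM scaling. Among the control libraries Dock2 was at 66.2 ± 3.15, above 97.8% of tested protein-coding genes. Dock8 followed at 35.3 ± 2.57 and Dock11 at 15.3 ± 1.24 on the same scale (SD, n = 5). Elmo2 was at 12.6 ± 0.806, Dock1 at 11.3 ± 0.305 and Elmo1 at 9.93 ± 0.698. Dock10 was at 6.69 ± 0.182, Dock4 at 4.53 ± 0.208 and Dock5 at 1.70 ± 0.185. Each of these neighbours was apart over the 5 control libraries. In the libraries labelled knockdown the order was the same, and the 1 pair of neighbours that overlapped was Dock1 (11.9 ± 0.429) and Elmo1 (10.3 ± 0.819). In bulk samples fewer cells of a type and less RNA per cell cannot be told apart.

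**Figure D1:**
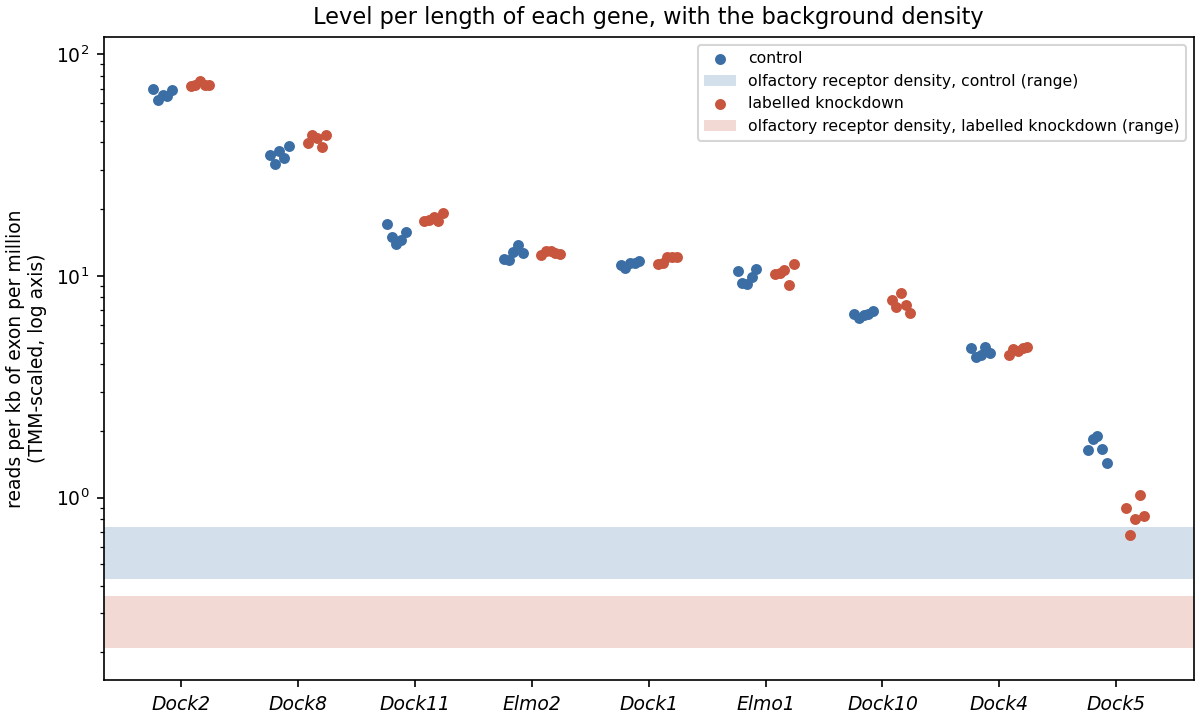
Reads per kb of exon per 1000000 reads (log axis) of the 9 genes, 1 point per library, with bands for the range of the olfactory receptor density in each group. Dock2 lies far above both bands, while Dock5 lies at 3.00 times the control mean density and 3.06 times that of the libraries labelled knockdown.

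The top and bottom of this order did not depend on the length used, but its middle did. With the length of the longest protein-coding transcript, a choice made after the data were seen, Elmo1 moved to the third place in the control libraries (22.9 ± 1.61, SD, n = 5). It then overlapped Dock11 (21.2 ± 1.72), which overlapped Elmo2 (17.8 ± 1.14), which overlapped Dock10 (17.0 ± 0.461). Dock2 and Dock8 remained first and second, and Dock4 and Dock5 last. The annotated exons of Dock4 sum to 22.9 kb and those of Dock10 to 18.3 kb, the longest of the 9. Exons of antisense genes overlapped Dock2 (4930403D09Rik, 460 bases) and Elmo1 (Gm32036, 403 bases), but these genes held 11 and 89 reads over all libraries.

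All 9 genes passed the filter on low counts and were tested. In the libraries labelled knockdown 4 rose (Dock2, Dock8, Dock10 and Dock11), 1 fell (Dock5) and 4 were not called (quasi-likelihood test of edgeR, adjusted p under 0.05 by Benjamini-Hochberg). Of all 19263 tested genes 22.9% were called higher and 31.3% lower, so the members' counts are read against a background in which most genes were called. The members' median log2 fold change was 0.07, beside -0.10 over all genes tested. Reads per library ran from 376 to 5142 for the 8 genes other than Dock5, which had 48 to 126.

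**Figure D2:**
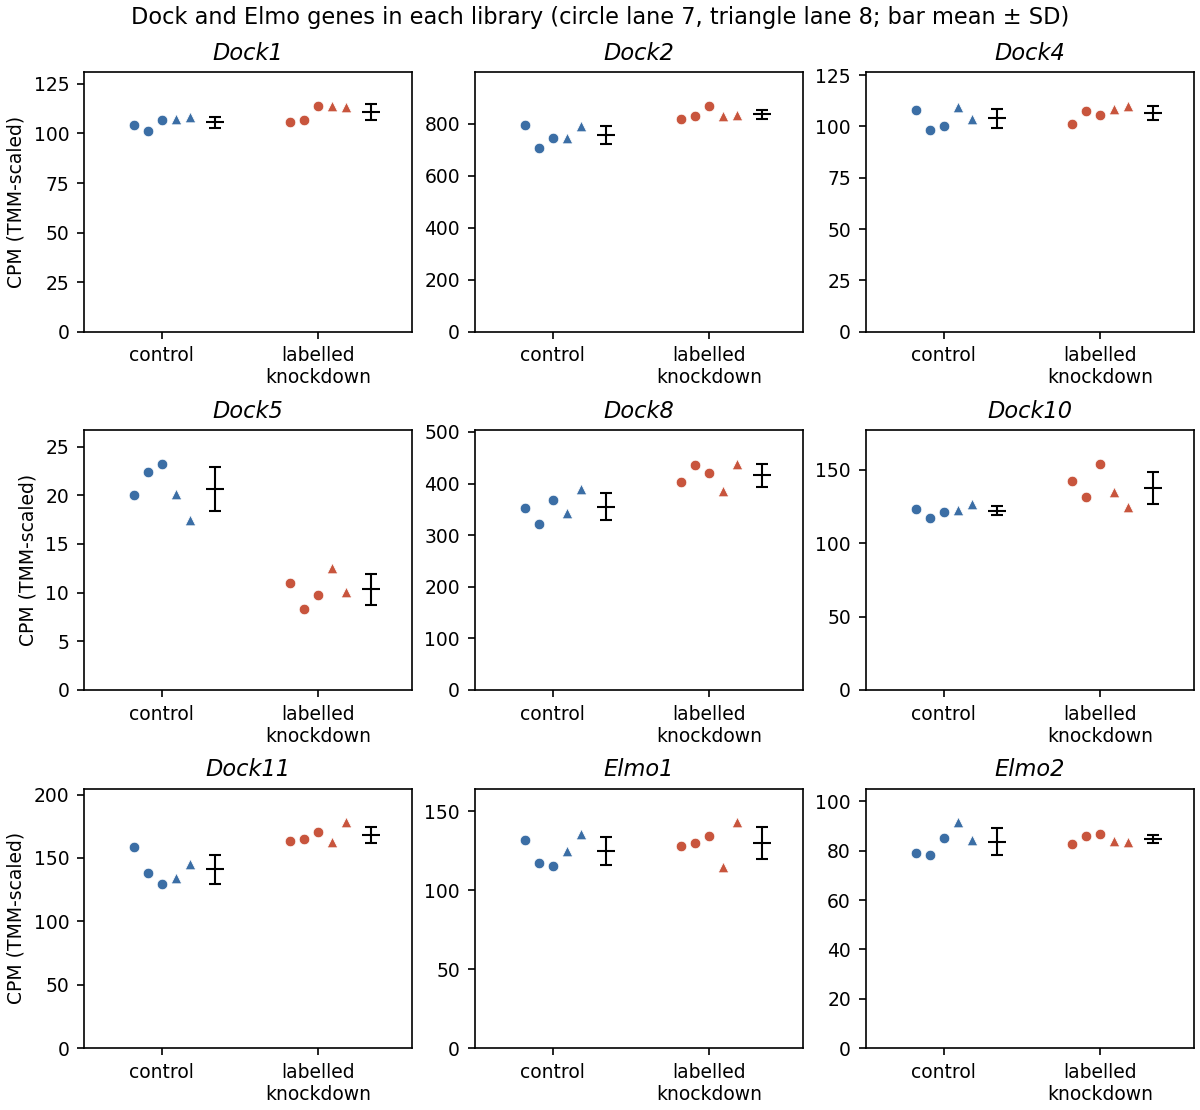
Counts per 1000000 reads (CPM, TMM-scaled) of the 9 genes in each library, circles for lane 7 and triangles for lane 8, with the mean and SD of each group beside the points. The groups are apart for Dock2 and Dock11 (higher in the libraries labelled knockdown with this scaling) and for Dock5 (lower), and overlap for the other genes.

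Dock2, the Rac exchange factor of blood-derived cells, was at 793, 708, 746, 743 and 791 CPM in control replicates 1 to 5. It was at 818, 832, 868, 829.6 and 833 CPM in the libraries labelled knockdown. The groups did not overlap, which with Dock11 made 2 members apart and higher, against 12.6% of tested genes. Its log2 fold change came to 0.14 (SE 0.06, edgeR adjusted p = 0.0268, 95% interval 0.03 to 0.26). This call was lost without control replicate 3 (0.14, adjusted p = 0.0592) or 4 (0.14, 0.064), and without replicate 2 (0.15, 0.0511), 3 (0.13, 0.0764) or 5 (0.15, 0.0513) of the libraries labelled knockdown.

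Dock8, a Cdc42 exchange factor whose loss in people causes an immunodeficiency, was at 353, 321, 368, 344 and 390.0 CPM in the control libraries. In those labelled knockdown it was at 402, 436, 421, 385 and 437 CPM. Only the lowest of these, replicate 4, lay below the highest control library. The fitted log2 fold change was 0.23 (SE 0.06, edgeR adjusted p = 0.00099, 95% interval 0.11 to 0.35).

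Dock11, a Cdc42 exchange factor found in leukocytes, was at 159, 138, 129, 134 and 146 CPM in the control libraries. Values of 163, 165, 171, 163 and 178 CPM were counted in those labelled knockdown. The groups did not overlap, and the log2 fold change was 0.25 (SE 0.06, edgeR adjusted p = 5.2e-04, 95% interval 0.13 to 0.37).

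Dock10, of the same branch as Dock11, was at 123, 117, 121, 123 and 127 CPM in the control and at 142, 132, 154, 135 and 125 CPM in the libraries labelled knockdown. The last of these lay within the control range and the other 4 above it. Its log2 fold change was 0.17 (SE 0.06, edgeR adjusted p = 0.0169, 95% interval 0.05 to 0.29), and the call was lost without replicate 3 of the libraries labelled knockdown (0.13).

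Dock1, the partner of Elmo in engulfment, was at 104, 101, 107, 107 and 108 CPM in the control libraries. It was at 106, 107, 114, 114 and 113 CPM in those labelled knockdown, where 5 of 5 lay above the control mean although the groups overlapped. This was a log2 fold change of 0.07 (SE 0.06, edgeR adjusted p = 0.344, 95% interval -0.05 to 0.19). Dock4, another Elmo-binding Rac activator, averaged 104 ± 4.76 CPM among control libraries and 106 ± 3.31 CPM among those labelled knockdown (SD, n = 5 each). The log2 fold change came to 0.04 (SE 0.06, edgeR adjusted p = 0.641, 95% interval -0.09 to 0.16).

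Elmo1, the scaffold that Dock2 binds in leukocytes, was at 132, 117, 115, 125 and 135 CPM in the control and at 128, 129.7, 134, 115 and 143 CPM in the libraries labelled knockdown. The 2 ranges overlapped almost entirely. It had a log2 fold change of 0.06 (SE 0.06, edgeR adjusted p = 0.457, 95% interval -0.07 to 0.18). Elmo2, the paralog found in many tissues, averaged 83.6 ± 5.36 CPM among control libraries and 84.6 ± 1.57 CPM among those labelled knockdown (SD, n = 5 each). The fitted log2 fold change was 0.02 (SE 0.06, edgeR adjusted p = 0.847, 95% interval -0.11 to 0.14). The ratio of Elmo1 to Elmo2 per kb within a library does not depend on scaling. As log2 it was -0.34 ± 0.135 in the control and -0.30 ± 0.116 in the libraries labelled knockdown (SD, n = 5 each, difference 0.04, exact two-sided permutation test, p = 0.667).

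Dock5, a Rac exchange factor known from osteoclasts, was at 20.03, 22.4, 23.2, 20.09 and 17.5 CPM in the control libraries. It was at 11.0, 8.27, 9.79, 12.6 and 10.0 CPM in those labelled knockdown, and the groups were far apart. It was the 1 member apart and lower, against 14.2% of tested genes. Its log2 fold change was -0.998 (SE 0.13, edgeR adjusted p = 5.8e-08, 95% interval -1.26 to -0.74), or 0.501 times the control level, and no alternative or left-out library ended this call. The background density moved with it: Dock5 per kb was 3.00 times the density in the control and 3.06 times in the libraries labelled knockdown, and the control density was 2.04 times the other. Its background share was 33.2% in the control and 32.5% in the other group. Among 3886 tested genes of 20 to 40% share, the median log2 fold change was -0.58 and the 10th percentile -1.18, and 49.2% fell. What part the background had in the fall of Dock5 was not tested.

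The other members had background shares of 0.592% (Dock2) to 9.00% (Dock4), and they are set here beside all tested genes of like share. Below 1% the median log2 fold change of 853 tested genes was 0.28 and 87.5% rose, beside 0.14 for Dock2. From 1 to 2.5% the median of 1601 genes was 0.26, close to Dock8 (0.23) and Dock11 (0.25). From 2.5 to 5% the median of 2274 genes was 0.21 and their 10th percentile 0.080, above Dock1 (0.07), Elmo1 (0.06) and Elmo2 (0.02). From 5 to 10% the median of 2786 genes was 0.14, between Dock10 (0.17) and Dock4 (0.04). In the plot of fold change against share, Dock1, Elmo1 and Elmo2 thus lie at the lower edge of the cloud, and Dock8 and Dock11 near its middle.

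**Figure D3:**
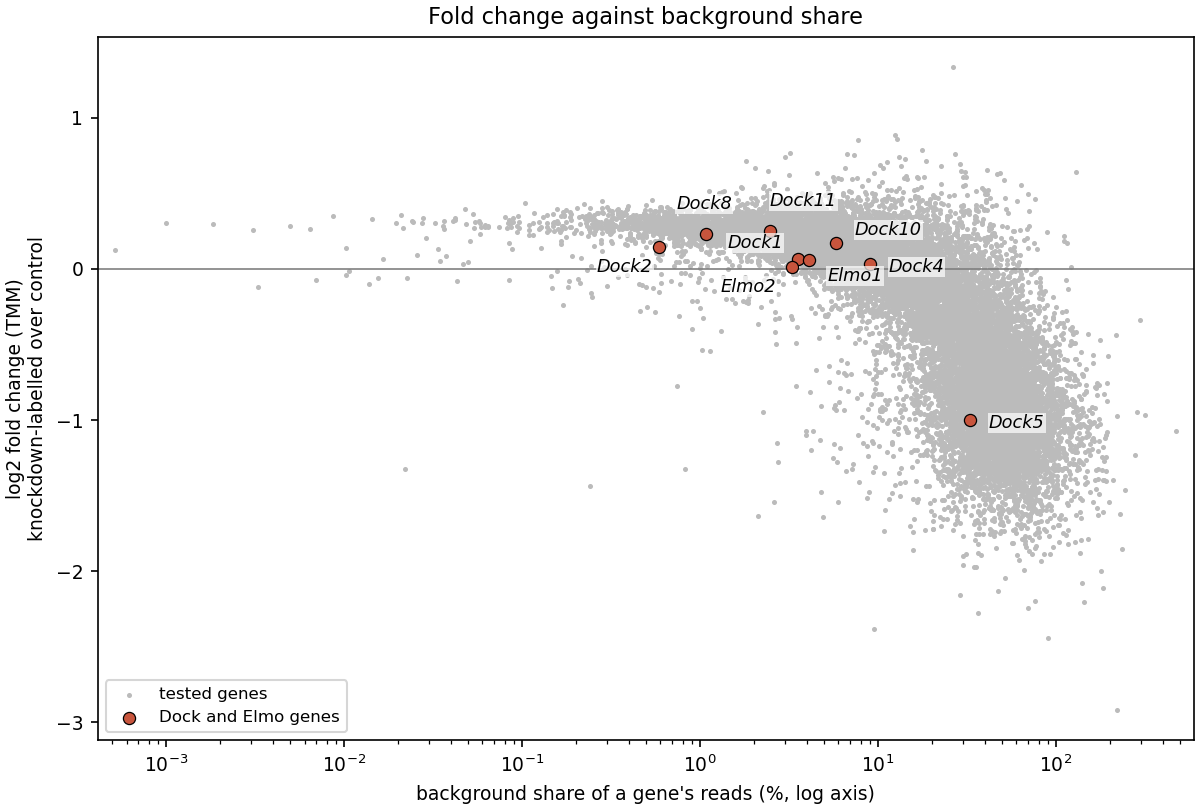
Log2 fold change of the libraries labelled knockdown over control (TMM scaling) against background share (percent, log axis) for the tested genes in grey and the 9 Dock and Elmo genes in red. Fold changes fall as the share rises, and Dock5 (share 32.9%, fold change -0.998) lies in the descending part.

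The direction of 7 members depended on how libraries were scaled. Over all genes tested, the median log2 fold change stood at -0.10 with TMM, -0.026 with DESeq2 size factors, -0.24 with the upper quartile and -0.28 with library totals. It was -0.34 when TMM factors were computed on the 4728 tested genes with a background share under 5%, whose own median was then -0.0017. Upper-quartile scaling called 0 members higher, against 8.75% of tested genes, and 2 lower, against 37.4%. Library totals called 0 higher, against 5.16%, and 5 lower, against 39.7%. With TMM over only the genes of at least 5 CPM in 5 libraries 2 members were higher (Dock8 and Dock11), against 17.1%, and 1 lower, against 18.7%.

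Scaled on the low-background genes, 0 members were called higher, against 1.62% of tested genes, and 6 were called lower, against 44.6%. Elmo2 was at -0.23 (SE 0.05, edgeR adjusted p = 7.3e-04), Dock4 at -0.21 (SE 0.05), Elmo1 at -0.19 (SE 0.05), Dock1 at -0.18 (SE 0.05) and Dock2 at -0.10 (SE 0.03, adjusted p = 0.00374), and Dock5 was at -1.25. Dock8 (-0.017), Dock10 (-0.076) and Dock11 (0.0058) were not called.

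With the expected background reads also subtracted, 5 members were called lower, against 11.0% of tested genes, and 0 higher, against 0.748%. These were Elmo2 (-0.23, SE 0.05, edgeR adjusted p = 0.00617), Elmo1 (-0.17, SE 0.05, adjusted p = 0.0134), Dock1 (-0.17, SE 0.05, adjusted p = 0.0187), Dock2 (-0.13, SE 0.03, adjusted p = 0.00397) and Dock5 (-1.25, SE 0.16). Dock4 was at -0.14 (adjusted p = 0.0641). Dock8 and Dock10 were at -0.033 each and Dock11 at 0.0081. Relative to other genes of low background, the Elmo genes and Dock1 were therefore about 0.2 log2 units lower, while with TMM over all tested genes they were not called and with library totals they were called lower (-0.12 to -0.17).

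**Figure D4:**
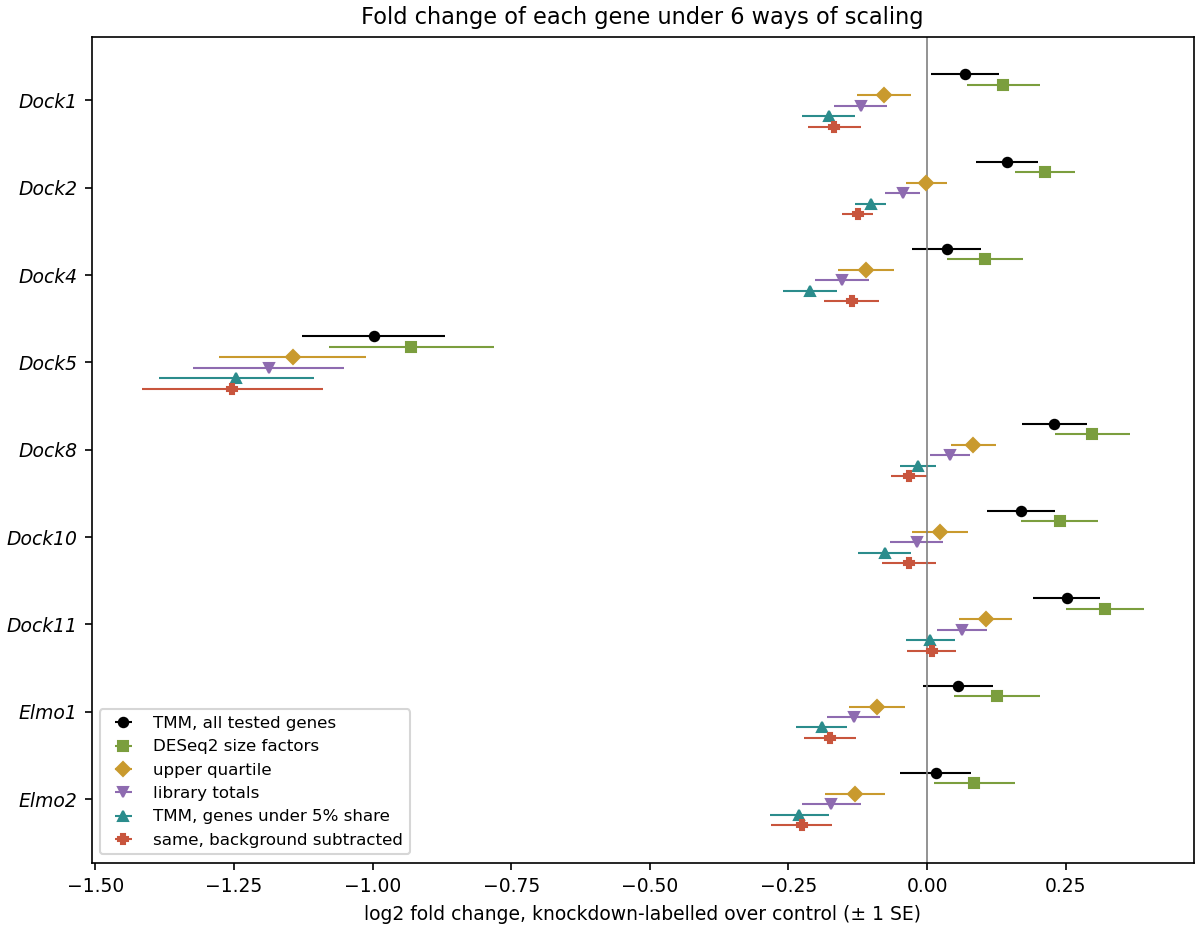
Log2 fold change of each gene, libraries labelled knockdown over control, under 6 ways of scaling, with bars of 1 standard error. Dock5 is below 0 under each of them and Dock11 at or above 0, while Dock1, Dock2, Dock4, Elmo1 and Elmo2 are above 0 with TMM over all genes and DESeq2 and below 0 with the other 4.

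Ratios between members within a library do not depend on scaling. The members were split here by known partner after their fold changes were seen, so the contrast restates those values without a scale, and its direction and the separation of the groups follow from the split and support nothing. In each library the mean log2 level per kb of Dock8, Dock10 and Dock11 was set against that of Dock1, Dock2, Dock4, Elmo1 and Elmo2. The difference was 0.236, 0.205, 0.201, 0.122 and 0.232 in control replicates 1 to 5. It was 0.383, 0.351, 0.388, 0.319 and 0.318 in the libraries labelled knockdown. The means were 0.199 ± 0.0458 and 0.352 ± 0.0335 (SD, n = 5 each). With Dock5 included the means were 0.696 ± 0.0602 and 1.03 ± 0.0577. Set against Dock2 alone, as log2 ratios per kb, single genes other than Dock5 still overlapped between groups, with differences of -0.13 (Elmo2) to 0.11 (Dock11).

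On GRCm38 the Rac branch lies at chr7:134670654-135173639 (Dock1, plus strand), chr11:34226815-34783892 (Dock2, minus), chr12:40445952-40846874 (Dock4, plus) and chr14:67752135-67933442 (Dock5, minus). The Cdc42 branch lies at chr19:24999534-25202432 (Dock8, plus), chr1:80501073-80758527 (Dock10, minus) and chrX:35888832-36076562 (Dock11, plus). Elmo1 lies at chr13:20090596-20608353 (plus) and Elmo2 at chr2:165288031-165326479 (minus). The members that were lower on the low-background scaling include genes of great genomic length. Dock2 spans 557 kb, Elmo1 518 kb, Dock1 503 kb and Dock4 401 kb, while Dock10 spans 257 kb, Dock8 203 kb, Dock11 188 kb, Dock5 181 kb and Elmo2 38.4 kb. Among tested protein-coding genes with a background share under 5%, the 38 that span 300 kb or more had a median log2 fold change of -0.09 on that scaling, and 19 of them were called lower. The 1052 such genes under 10 kb had a median of 0.0032, and 3.80% were called lower. From 100 to 300 kb 9.73% of 442 genes were called lower. Dock1, Dock2 and Elmo1 are among the 38, and Elmo2, the lowest of the low-background members, is not. This look at length was chosen after the data were seen, and its part in the values of the Dock and Elmo genes was not tested.

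Within lanes, which the names of the files give as 7 for replicates 1 to 3 and 8 for replicates 4 and 5 of both groups, the called members kept their direction with TMM scaling. In lane 7 the log2 fold changes were 0.16 (Dock2), 0.27 (Dock8), 0.24 (Dock10), 0.22 (Dock11) and -1.18 (Dock5), and Dock2 lost its call (adjusted p = 0.0982). Of all tested genes 19.6% were called higher and 27.4% lower there. In lane 8, with 2 libraries a group, they were 0.12, 0.16, 0.06, 0.29 and -0.73 in the same order, and Dock5 alone was called (edgeR adjusted p = 0.0396), against 0.675% of tested genes called higher and 1.47% lower. A fit with the replicate number as a block called 22.9% of tested genes higher and 30.9% lower, and the same 5 members.

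The profile most like that of Dock2, the member of highest level per kb, was sought among 11318 protein-coding genes whose mean was 5 CPM or more. Likeness was the root mean square difference of centred log2 CPM over the 10 libraries. Vegfb (0.0246) and Hdac5 (0.029) were among the 3 closest, with log2 fold changes of 0.13 and 0.14. Vegfb encodes a growth factor and Hdac5 a histone deacetylase. Of the other members Dock1 ranked 233 and Dock5 10451 in likeness to Dock2.

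Of 5 GTPase genes of this pathway 4 (Rac1, Rac2, Cdc42 and Rhog) rose with TMM scaling, while the wider pathway went both ways. These 4 had background shares of 0.352% (Cdc42) to 0.873% (Rac1). Of all tested genes with a share below 1%, 87.5% rose, with a median log2 fold change of 0.28. Rac1 went from 185 ± 10.7 to 238 ± 21.1 CPM (SD, n = 5 each, log2 fold change 0.37, SE 0.06) and Cdc42 from 304 ± 32.2 to 388 ± 12.1 CPM (0.35, SE 0.06). Rac2, the Rac of blood-derived cells, was at 0.29 and Rhog, which recruits Elmo to the membrane, at 0.30 (SE 0.07). Rac3 averaged 3.12 ± 0.868 CPM in the control (SD, n = 5) and was not called (0.058). With scaling on the low-background genes Rac1 (0.12) and Cdc42 (0.11) were still called higher and Rac2 (0.04) and Rhog (0.05) were not, and with background subtracted none of these 4 was called (edgeR adjusted p from 0.114 to 0.784).

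Of 82 pathway genes in 5 lists 81 were tested, 46 rose and 18 fell. Their median log2 fold change was 0.18, beside -0.10 over all genes tested. Among the 48 with a background share under 5%, 44 rose and 0 fell, beside 75.5% and 0.486% of all tested genes under that share. Among the 33 with a higher share 2 rose and 18 fell, beside 5.84% and 41.3% of such genes. With scaling on the low-background genes 3 of the 81 were higher and 25 lower, with a median of -0.06, beside 1.62% and 44.6% of all tested genes. With background subtracted 1 was higher (Pak2, 0.12) and 13 lower, beside 0.748% and 11.0%. The lists are therefore described by level as well as by direction, and the directions of single genes that follow are those with TMM scaling.

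**Figure D5:**
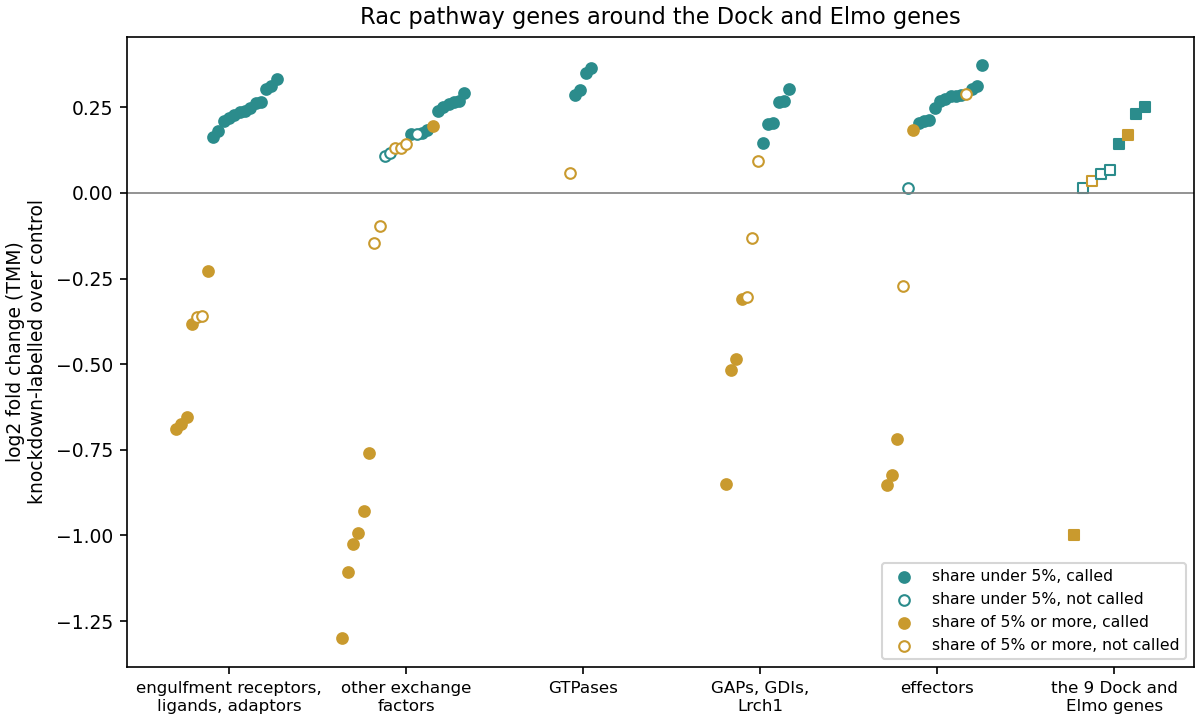
Log2 fold change (TMM scaling) of tested Rac pathway genes by list and, as squares, of the 9 Dock and Elmo genes, coloured by background share and filled where called. Fallen genes are those with a share of 5% or more, and genes under that share lie above 0 with this scaling.

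Among engulfment receptors, their ligands and adaptors 13 of 20 tested genes rose and 5 fell, beside 22.9% and 31.3% of all tested genes. By background share 13 of 13 under 5% rose and 5 of the other 7 fell. Of all tested genes 75.5% rose under that share and 41.3% fell from it on. The adaptor gene Crk rose (0.33, SE 0.06), as did the receptor kinase gene Mertk (0.31, SE 0.06) and the integrin gene Itgb5 (0.30, SE 0.06). Falls were those of Adgrb1 (-0.69, SE 0.20), the receptor that binds Elmo1 directly, Tyro3 (-0.67, SE 0.21) and Stab2 (-0.38, SE 0.11), at control means of 9.26, 8.73 and 20.3 CPM. Of 24 other exchange factors 10 rose and 6 fell. Under a 5% share 9 of 12 rose, and from 5% on 1 of 12 rose and 6 fell. Vav1 (0.29), Prex1 (0.26) and Fgd4 (0.25) rose from control means of 177 to 384 CPM, and Kalrn (-1.11), Dock3 (-1.30) and Dock9 (-0.76) fell from means of 15.2 to 27.0 CPM. Their background shares were 51.4, 57.3 and 28.0%. Elmo3 had 7.74 ± 2.04 CPM in the control (SD, n = 5) and was not called (-0.10), and neither was Dock6 (-0.15).

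Of 13 genes that restrain these GTPases 6 rose and 4 fell, beside 22.9% and 31.3% of all tested genes. Abr (0.30), Arhgap25 (0.27) and Arhgdia (0.26) were among the rises. Under a 5% share 6 of 6 rose, and from 5% on 4 of 7 fell. Of all tested genes 75.5% rose under that share, and from 5% on 5.84% rose and 41.3% fell. The falls included Bcr (-0.49), Srgap3 (-0.52) and Arhgap15 (-0.85), at background shares of 18.6 to 68.1%. Of 19 effectors 13 rose and 3 fell. Under a 5% share 12 of 13 rose, and from 5% on 1 of 6 rose and 3 fell. The kinase gene Pak2 (0.37, SE 0.06) and the WAVE complex genes Cyfip2 (0.30) and Wasf2 (0.28) rose. Wasf3 (-0.85), Pak3 (-0.82) and Wasf1 (-0.72), which had control means of 4.61 to 5.94 CPM, fell. Their background shares were 47.5, 108 and 32.3% in that order, so over all libraries the reads of Pak3 did not exceed the expected background. With background reads subtracted 4 of the genes named here were on the other side of 0 and not called: Prex1 (-0.0055), Arhgap25 (-0.0046), Arhgdia (-0.0084) and Pak3 (0.74). Most of the other named genes also lost their calls then. Of the named rises Pak2 alone was still called, and of the named falls Stab2, Kalrn, Dock3, Dock9 and Bcr were. Dock6 was called lower with background subtracted (-0.34, edgeR adjusted p = 0.00377).

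Markers of microglia summed to 2547 to 3034 CPM in control libraries and to 3121 to 3643 CPM in libraries labelled knockdown, and 9 of 10 rose with TMM scaling. The count is near that of like genes, since these markers had a background share of 0.494% (median) and 87.5% of the tested genes below 1% rose. In the same order, astrocyte markers (8 genes) summed to 170.0 to 189 and 161 to 197 CPM. With TMM scaling 2 of these 8 were called higher and 2 lower, beside 22.9% and 31.3% of all tested genes. Oligodendrocyte lineage markers (9 genes) summed to 106 to 113 and 102 to 113 CPM, and of the 8 tested 0 were called higher and 2 lower. Neuron markers (8 genes) summed to 49.1 to 80.2 and 26.7 to 41.2 CPM. Markers of fibroblasts and vessels (8 genes) summed to 39.5 to 56.1 and 22.4 to 35.7 CPM, and those of lymphocytes and neutrophils (9 genes) to 16.1 to 22.03 and 7.60 to 13.8 CPM. The sums of the last 3 lists did not overlap between groups and were lower in the libraries labelled knockdown. Those of the microglia markers did not overlap either and were higher there. The median background shares of the last 3 lists were 49.98, 68.3 and 59.1% in that order. The oligodendrocyte lineage list, whose sums overlapped, had a median share of 49.4%. No marker was at 0 in every library, and Cldn5, Nkg7 and S100a9 were at 0 in some. Dock1, Elmo1 and Elmo2 are also used by other brain cells. The part of other cells in the members' values was not tested.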

How the data were processed

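The authors deposited raw counts of reads for each gene, in files without a header whose names say exon counts. Per the submitters' processing notes bcl2fastq and GRCm38 (mm10) were used. Which aligner, counter, strand setting and gene models were used is not given in the sources used here. Reads of antisense or overlapping genes cannot be told apart. Per the labels' protocols libraries came from a stranded, random-primed total RNA kit for low input. Groups and replicate numbers came from the labels. Of 55471 genes 55230 matched GENCODE M21, and the unmatched held 0.0107% of reads. Spike-in entries (0 to 2 reads per library) were left out. Replicates differed by more than sampling noise (chi-square over its degrees of freedom 1.76 to 4.48).

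Low counts were removed with filterByExpr, and the rest scaled with TMM and tested with edgeR 4.0.16 (R 4.3.3, quasi-likelihood, robust, group only), adjusted by Benjamini-Hochberg over 19263 genes. DESeq2 1.42.0, other scalings and filters, lane, replicate block, each library left out, and background subtraction were alternatives. The test was checked on simulated counts for the comparison of the groups (19263 genes, 50 changed per size). It found 6% of 1.2-fold, 40% of 1.5-fold, 88% of 2-fold and 96% of 3-fold changes, and called 11 of 19063 unchanged genes. The simulation gave every gene the same dispersion and both groups the same background, whereas the measured background density differed between groups. These rates may therefore not hold for the real libraries. The Elmo ratio was tested over all 252 ordered splits. Members and lists were chosen with earlier results of these data known. The text names the members, 3222401L13Rik, Rac1, Rac2, Cdc42 and Rhog, up to 3 called genes of smallest p per list and direction, and the genes most like Dock2 (1 of the 3 is not reported here). Rac3, Elmo3, Dock6 and the marker and antisense genes were named after their values were seen. Figures used matplotlib 3.10.9.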

Additional observations from a re-analysis of the deposited data

How the results depend on the processing

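Dock5 stayed below 0 and called under all 21 alternatives run. Leaving out each library gave 2 to 4 members called higher, 1 lower, 40 to 49 pathway genes higher and 14 to 18 lower, and 3809 to 4770 tested genes higher and 4865 to 6345 lower. It gave log2 fold changes of -0.0066 to 0.050 for Elmo2 and of -0.0019 to 0.079 for the Elmo1 to Elmo2 ratio. Upper-quartile scaling called 0 members higher and 2 lower, 23 pathway genes higher and 20 lower, and 1685 tested genes higher and 7195 lower. It put Dock1 at -0.078, Dock2 at -0.0015, Dock4 at -0.11, Elmo1 at -0.090 and Elmo2 at -0.13. Library totals called 0 members higher and 5 lower, 13 pathway genes higher and 21 lower, and 994 tested genes higher and 7653 lower. They put Dock1 at -0.12, Dock2 at -0.044, Dock4 at -0.15, Dock10 at -0.019, Elmo1 at -0.13 and Elmo2 at -0.17. A filter of 5 CPM in 5 libraries called 2 members higher, 28 pathway genes higher, and 2057 tested genes higher and 2239 lower, fewer genes being tested, with Dock1 at -0.050, Dock4 at -0.083, Elmo1 at -0.062 and Elmo2 at -0.10. Lane 8 alone, with fewer libraries, called 0 members higher, 0 pathway genes higher and 3 lower, and 130 tested genes higher and 283 lower, with Elmo1 at -0.015 and Elmo2 at -0.067. Scaling on genes under a 5% background share called 0 members higher and 6 lower, and 3 pathway genes higher and 25 lower. Of all tested genes it called 312 higher and 8589 lower. Dock1 was then at -0.18, Dock2 at -0.10, Dock4 at -0.21, Dock8 at -0.017, Dock10 at -0.076, Elmo1 at -0.19 and Elmo2 at -0.23. Background subtraction with that scaling called 0 members higher and 5 lower, 1 pathway gene higher, and 144 tested genes higher and 2124 lower, with Dock1 and Elmo1 at -0.17, Dock2 at -0.13, Dock4 at -0.14, Dock8 and Dock10 at -0.033 and Elmo2 at -0.23. The share of calls that were rises was 42.3% with TMM, 49.7% with DESeq2, 19.0% with upper-quartile scaling, 11.5% with library totals, 3.51% with scaling on the low-background genes and 6.35% with background also subtracted. With no filter 5821 of 48620 genes were higher and 7282 lower. The cause of these moves was not tested.

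With transcript length in place of merged exons 4 of 9 members kept their place in the order of levels. Same-numbered libraries of the 2 groups did not deviate together (r = -0.213 to 0.16, beside -0.344 to 0.372 for other pairs). A low correlation cannot show that they came from different cultures, so whether the numbers pair them was not settled. With the replicate block 4 members were higher (Dock2 at 0.15, Dock8 0.23, Dock10 0.17, Dock11 0.25) and 1 lower, 4405 tested genes were higher and 5949 lower. At 48 to 126 reads a library Dock5 was measured least precisely. No library lay far from its group in the members' CPM.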
